A study of Zea mays with 2 samples.

Results

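The regions described here are the chromatin loops and hierarchical domains that lay at the ends of the maize chromosomes. A loop or domain was taken as lying at an end when it lay wholly, with both anchors in the case of a loop, in the first 10 Mb or the last 10 Mb of chromosomes 1 to 10 of B73 AGPv4. The first 10 Mb of chromosome 6 were left out, which gave 19 end windows of 190 Mb together, or 9.02% of 2106.24 Mb. These windows held 2025 of 16863 loops and 1756 of 17978 domains in replicate 1, and 3091 of 25628 loops and 1943 of 18739 domains in replicate 2. A further 23 loops and 33 domains in replicate 1, with 41 loops and 38 domains in replicate 2, crossed the inner border of a window and belonged neither to the ends nor to the rest. Chromosome length was taken as the largest coordinate in the lists.

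The lists came from Hi-C of leaf tissue of the inbred line B73 at stage v04, with 2 biological replicates, each from pooled plants, of a single untreated genotype and stage. In Hi-C, pieces of DNA that neighbour each other in the nucleus are ligated and read as pairs, so that read pairs record contacts. Each replicate was called alone, so the comparison made is between places on the chromosomes, within each replicate. Loops of replicate 1 had anchors of 5, 10 or 25 kb, and all loops of replicate 2 had anchors of 10 kb. The paper lists this set of replicate 2 under detection at a resolution of 10 kb. The releases of the caller differed as well. Numbers, lengths and anchor sharing of loops are therefore compared between ends and rest within a replicate, and not between replicates.

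A loop in a Hi-C map is a pair of places, its anchors, that meet more often than their surroundings. A domain is a stretch whose parts meet each other more often than they meet the neighbouring sequence, and domains can lie inside each other. In maize, genes and open chromatin are concentrated toward the chromosome ends, and the broad regions around the centromeres are rich in repeats and heterochromatin. In plants, loops often join genes or regulatory elements across stretches of repeats, and the protein CTCF, which marks loop anchors in mammals, has no known plant counterpart. Gene content and sequence of the windows were not analysed here.

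Loops were more densely placed at the chromosome ends than in the rest of the chromosomes. Replicate 1 had 10.7 loops per Mb at the ends and 7.73 in the rest, and replicate 2 had 16.3 and 11.8. The ratio of ends to rest was 1.38 ± 0.00373 (SD, n = 2), nearly the same in both replicates although their numbers of loops differed. On 10 of 10 chromosomes, the ends had more loops per Mb than the rest of the same chromosome in both replicates. The mean difference was 3.72 ± 1.12 loops per Mb (SD, n = 2; exact permutation test by sign flips, two-sided, p = 0.5). With 2 replicates this test cannot go below 0.5, so that no difference between ends and rest in these lists could pass a threshold of 0.05. Counts of chromosomes are therefore given as descriptions.

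The high density was not particular to the outermost 10 Mb. The 10 Mb next to each end window had 10.6 loops per Mb in replicate 1 and 16.5 in replicate 2, against 10.7 and 16.3 at the ends. On 5 chromosomes the ends were denser than the neighbouring 10 Mb in both replicates, and on 4 they were less dense in both. Farther in, density was lower, with a slight rise from 50 to 60 Mb (11.3) to 60 to 70 Mb (11.5) in replicate 2. It was 8.73 and 13.5 loops per Mb at 30 to 40 Mb from the nearer end in replicates 1 and 2, and 5.74 and 8.57 beyond 80 Mb.

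Within the end windows, the outermost Mb was the least dense. Loops with a midpoint in the first Mb from the tip numbered 134 in replicate 1 and 214 in replicate 2, or 7.05 and 11.3 per Mb, close to the density of the rest of the chromosomes. The next Mb already had 11.3 and 15.9 loops per Mb. The highest values were 12.9 loops per Mb in replicate 1, at 5 to 6 Mb, and 19.6 in replicate 2, at 4 to 5 Mb. From 9 to 10 Mb the density was 9.68 and 13.7.

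**Figure D1:**
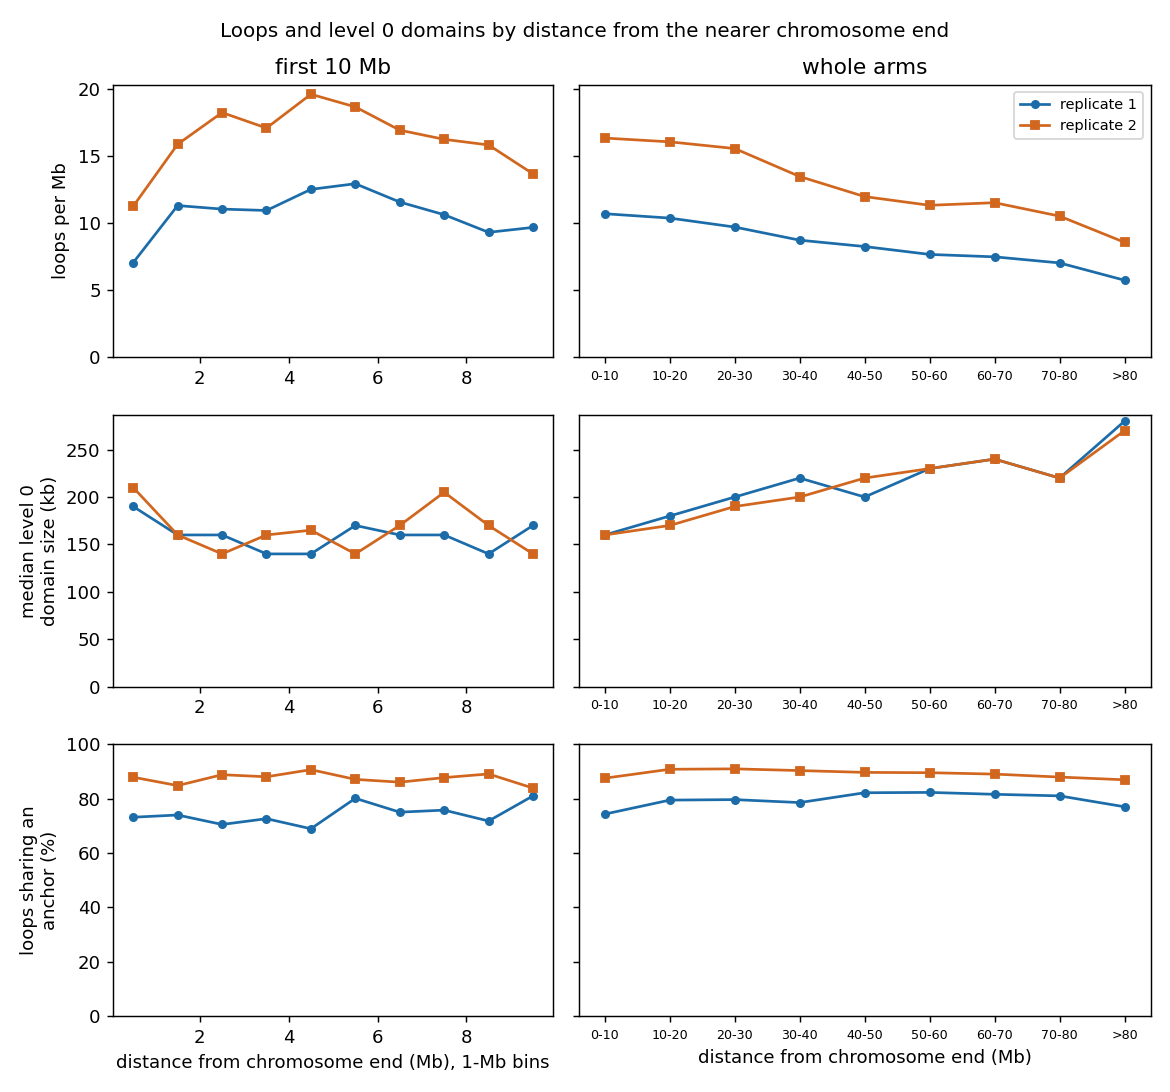
Loops per Mb, median size of level 0 domains in kb and share of loops with a shared anchor (y axes) against distance from the nearer chromosome end in Mb (x axes), in 1-Mb bins over the first 10 Mb (left) and in 10-Mb bins from end to midpoint (right), with a line for each replicate. Loop density was lowest in the first Mb of the end windows, peaked at 4 to 6 Mb and fell to 5.74 and 8.57 per Mb beyond 80 Mb, while the level 0 median rose from 160 kb to 280 and 270 kb.

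No loop reached into the outermost 140 kb of the 19 windows. The distance from the tip to the nearest loop had a median of 260 kb over the 19 tips in replicate 1 (140 to 480 kb) and 270 kb in replicate 2 (190 to 480 kb). At 15 of 19 tips, the replicates placed it within 30 kb of each other. At the end of chromosome 2, the loop nearest to any tip in replicate 1 joined 244255001-244260000 and 244295001-244300000, 140 kb from the tip, with 32 contacts, 16.3 times the contacts expected from the surrounding donut-shaped background. The loop nearest to any tip in replicate 2 lay at the same end, between 244110001-244120000 and 244240001-244250000, with 31 contacts, 4.72 times the expected number. Neither was found in the other replicate. At the start of chromosome 4, by contrast, the outermost loop had the same anchors in both replicates, 230001-240000 and 290001-300000, with 24 and 45 contacts. Domains did reach the tips, since a level 0 domain, the outermost level of the hierarchy, began at the tip itself at 18 of 19 ends in replicate 1 and 19 of 19 in replicate 2. The tip itself is the largest coordinate of the lists, so at the far ends of the chromosomes this holds by definition in at least 1 replicate. The outermost domains measured 230 kb in the median in replicate 1 (80 to 700 kb) and 290 kb in replicate 2 (80 to 1250 kb).

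The 19 windows differed among themselves in loop number, and did so alike in both replicates. In replicate 1 the lowest, median and highest window held 52, 106 and 137 loops, and in replicate 2 they held 81, 168 and 221. Across the 19 windows the loop numbers of the replicates had a Pearson correlation of 0.936 and a Spearman correlation of 0.919, and without the lowest window a Pearson correlation of 0.900 over 18 windows. The windows of the replicates are the same stretches of the genome, so this describes how reproducible the order is. Of the other measures, the median level 0 size per window had a Pearson correlation of 0.233 between replicates, and so the windows had no stable order by domain size.

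The most loops, 175.5 on average over the replicates, were held by the ends of chromosomes 6 and 7. The end of chromosome 6 had 130 loops in replicate 1 and 221 in replicate 2, and the end of chromosome 7 had 135 and 216. Their order reversed between the replicates, and the end of chromosome 10, with 137 loops, was the highest in replicate 1. The end of chromosome 2 (78 and 118 loops) and the end of chromosome 5 (92 and 121) were the next lowest windows above the start of chromosome 4. The start of chromosome 4 was below the rest of the chromosomes in both replicates, with 5.2 and 8.1 loops per Mb, and lay well apart from the other windows. Without it, the ends of replicate 2 held 16.7 loops per Mb in place of 16.3.

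**Figure D2:**
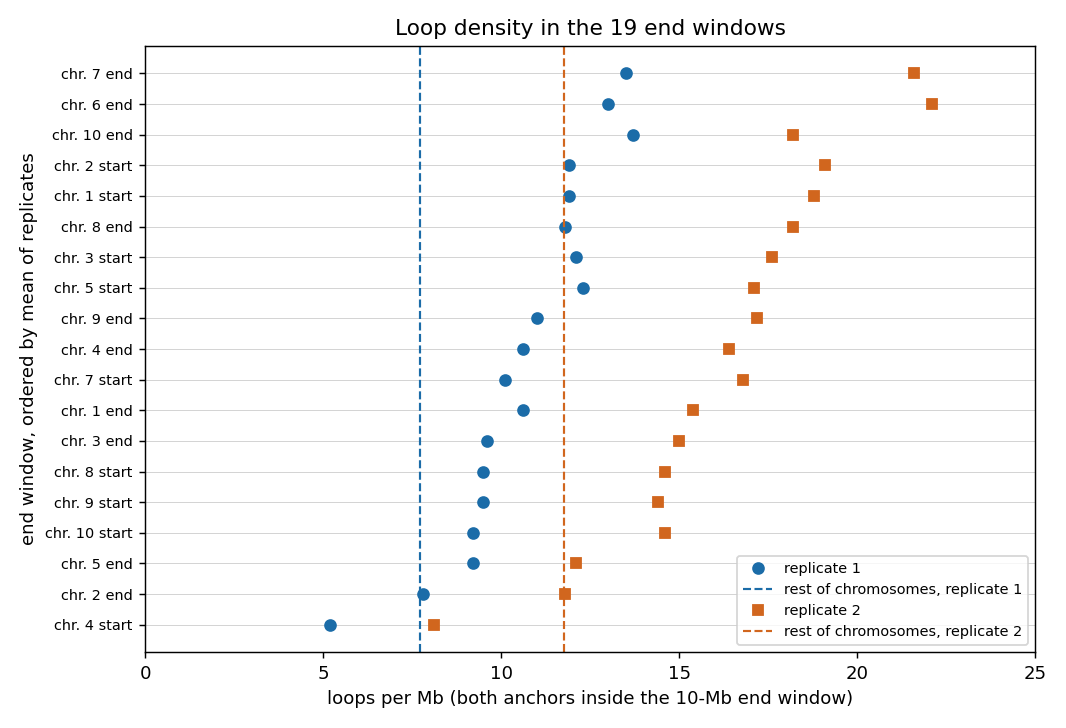
Loops per Mb (x axis) in each of the 19 end windows (y axis, ordered by the mean of the replicates), with circles for replicate 1, squares for replicate 2 and dashed lines for the rest of the chromosomes in each. The start of chromosome 4 lies below both lines at 5.2 and 8.1, the end of chromosome 2 lies close to them, and the other windows lie above.

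The start of chromosome 4 was sparse in several ways. Its domains left 500 kb uncovered at 1880001 to 2380000 and 160 kb at 3920001 to 4080000, with identical limits in both replicates, and no loop anchor touched either stretch. Its inner part was taken up by a single level 0 domain that crossed the window border, 8380001 to 10320000 in replicate 1 (1940 kb) and 8370001 to 10360000 in replicate 2 (1990 kb). This domain, named after its values were seen, held 4 sub-domains in each replicate, and 1 loop in replicate 1 and 0 in replicate 2. The remaining 8.38 and 8.37 Mb of the window had 6.09 and 9.68 loops per Mb, still below the rest of the chromosomes. Of its loops, 23.1% in replicate 1 and 14.8% in replicate 2 were found in the other replicate, the lowest shares of any end window. In replicate 1, 40.4% of its loops shared an anchor with another loop, where the median over the windows was 74.8%. In replicate 2 that share was 82.7%, against a median of 86.8%.

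**Figure D3:**
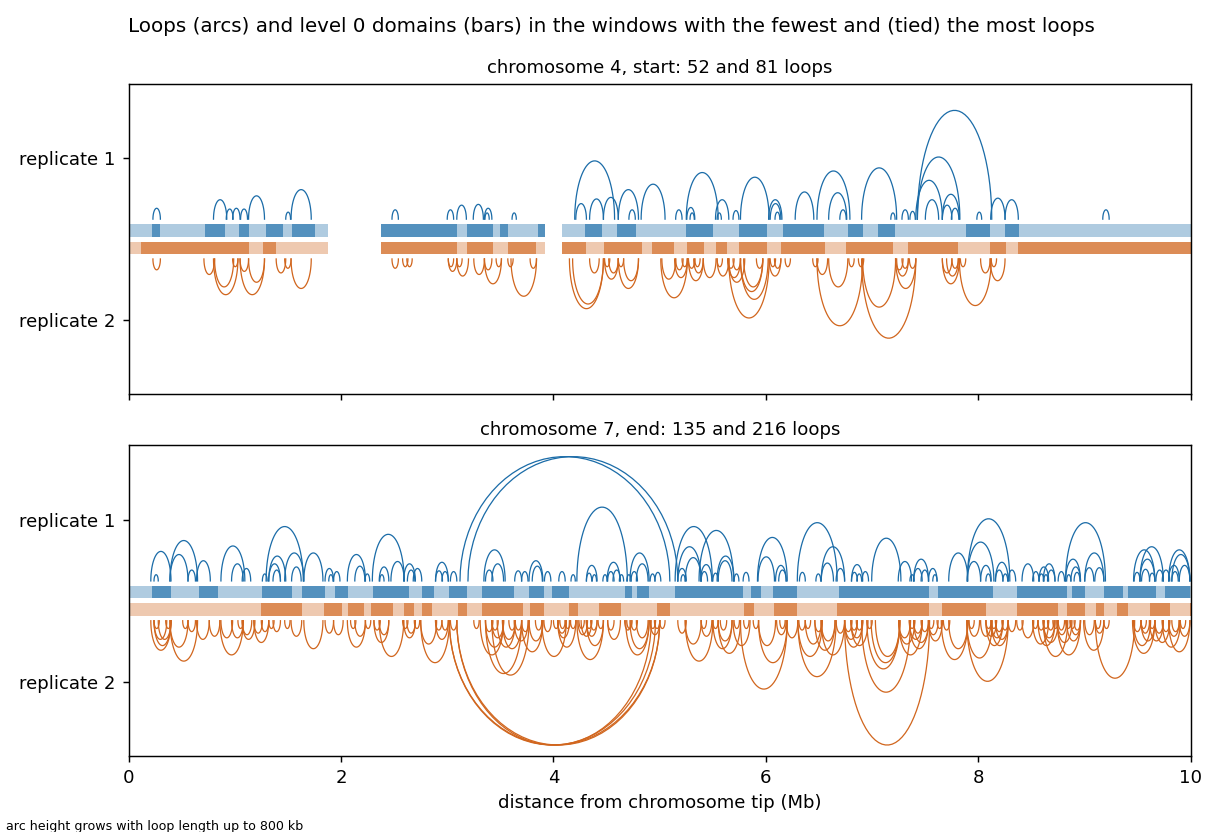
Loops (arcs, which join the outer edges of the anchors and grow in height with length up to 800 kb) and level 0 domains (bars in alternating shades, cut at the window border) against distance from the chromosome tip in Mb, for the start of chromosome 4 and the end of chromosome 7, with replicate 1 above and replicate 2 below each axis. The 52 and 81 loops of chromosome 4 leave empty the 500-kb and 160-kb stretches without domains and nearly all of the long domain beyond 8.3 Mb, whereas the 135 and 216 loops of chromosome 7 lie along the whole window.

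Stretches without any domain were few at the ends. Level 0 domains covered 98.9% of the end windows in replicate 1 and 98.8% in replicate 2. The uncovered stretches added up to 2140 kb in 22 gaps and 2310 kb in 26 gaps. Of these, 7 in each replicate were at least 100 kb long, and 6 of the 7 had identical limits in both. No loop anchor touched any gap of this size. The longest after that of chromosome 4 was 7890001 to 8130000 on chromosome 2 in replicate 1 (240 kb), and 299830001 to 300030000 on chromosome 1 in replicate 2 (200 kb). Whether these are gaps in the assembly was not tested, since no sequence of this build was used.

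Loops at the ends were shorter. Their median length was 90 kb in both replicates (quartiles 55 and 150 kb in replicate 1, 50 and 160 kb in replicate 2). In the rest it was 125 kb (quartiles 70 and 225 kb) and 120 kb (quartiles 70 and 220 kb). The mean difference of the medians was -32.5 ± 3.54 kb (SD, n = 2; exact permutation test, two-sided, p = 0.5), and the ends had the lower median on 10 of 10 chromosomes in both replicates. The 10 Mb next to the ends lay between, at 100 and 110 kb.

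The greater density at the ends lay in the shorter loops. Loops of up to 100 kb numbered 6.27 per Mb at the ends and 3.28 in the rest in replicate 1, and 9.14 and 5.05 in replicate 2, which is 1.91 and 1.81 times as many. From 100 to 200 kb the ratio was 1.21 and 1.37. Longer loops were fewer at the ends than in the rest, with ratios of 0.780 and 0.809 from 200 to 500 kb and of 0.515 and 0.299 from 500 to 1000 kb. The last class rested on 25 and 22 end loops. Loops over 1 Mb numbered 10 at the ends in each replicate. Loops across a window border are not counted in these classes, and long loops cross a border more readily.

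Over all loops, the contact counts were alike at ends and rest in replicate 1, with a median of 20 and 21 contacts, and were higher at the ends in replicate 2, with 38 and 31. The expected contacts were 3.66 at the ends and 4.13 in the rest in replicate 1, and 8.96 and 7.46 in replicate 2. The ratio of observed to expected contacts had a median of 5.42 at the ends and 4.86 in the rest in replicate 1, and 4.34 and 4.44 in replicate 2. The replicates thus differed in direction, and the mean difference of 0.230 was smaller than its spread of 0.458 (SD, n = 2; exact permutation test, two-sided, p = 1). In replicate 1 the ratio moved with anchor size, and 43.4% of end loops had 5-kb anchors against 32.7% in the rest. Within an anchor size the ratios were close, at 7.49 and 7.55 for 5 kb, 4.74 and 4.72 for 10 kb, and 3.32 and 3.12 for 25 kb at ends and rest. Median contacts by anchor size in replicate 1 were 16 and 15, 23 and 21, and 41 and 40. In replicate 2 they were 51 and 43 for loops of up to 100 kb, 30 and 30 from 100 to 200 kb, and 19 and 21 from 200 to 500 kb. From 500 to 1000 kb they were 14.5 and 15, and over 1000 kb 23 and 16.

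Level 0 domains were smaller at the ends. Their median size was 160 kb at the ends and 220 kb in the rest, in each replicate. The ends had the lower median on 10 of 10 chromosomes in both replicates (mean difference -60 ± 0 kb, SD, n = 2; exact permutation test, two-sided, p = 0.5). Domain boundaries lay on a 10-kb grid in both replicates. There were 878 level 0 domains at the ends in replicate 1 and 837 in replicate 2, or 4.62 and 4.41 per Mb, against 3.25 and 3.34 per Mb in the rest. The neighbouring 10 Mb had medians of 170 and 160 kb. Against them, the ends were lower on 10 of 10 chromosomes in replicate 1 and on 6 in replicate 2, where they were higher on 4.

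Compared with the rest, small domains were common and large ones rare at the ends. Level 0 domains of up to 100 kb made up 24.7% of those at the ends in replicate 1 (217 domains, 95% Wilson interval 22.0 to 27.7%) and 26.2% in replicate 2 (219 domains, 23.3 to 29.2%). In the rest they made up 14.9% and 16.1%. Level 0 domains of 800 kb or more made up 0.683% at the ends in replicate 1 (6 domains, interval 0.314 to 1.48%) and 1.91% in replicate 2 (16 domains, interval 1.18 to 3.08%), against 5.23% and 4.79% in the rest. Such intervals are for counting error alone and take each domain or loop as independent of the others. In the neighbouring 10 Mb, domains of 800 kb or more made up 1.81% and 1.87%, the latter close to the ends of replicate 2. Domains across a window border are not counted, such as those of 1940 and 1990 kb on chromosome 4. Large domains cross a border more readily, and the effect on these shares was not tested.

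**Figure D4:**
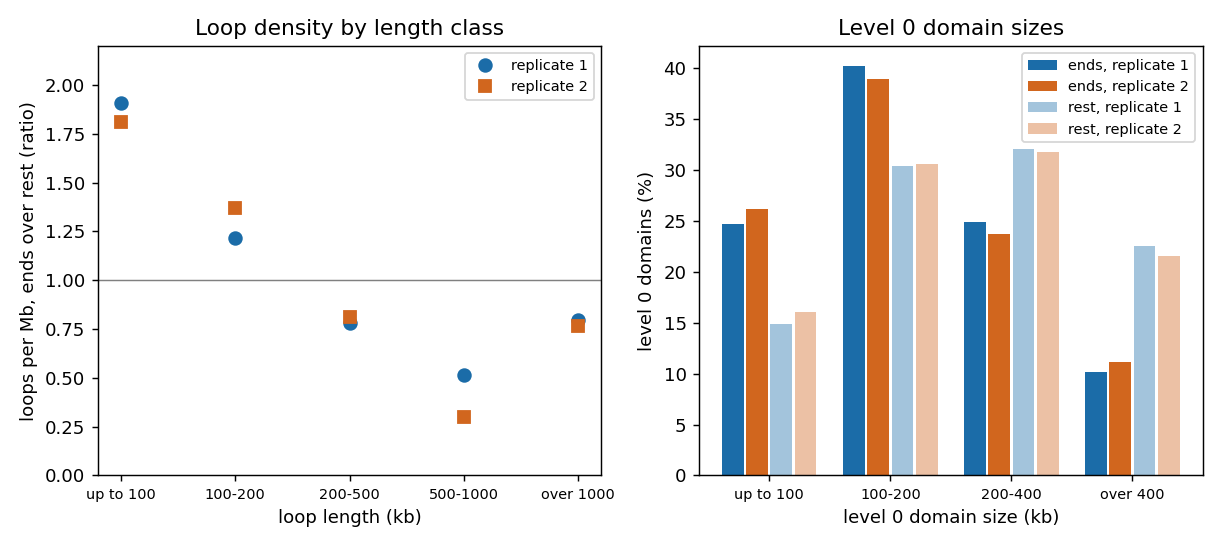
Left, ratio of loops per Mb at the ends to loops per Mb in the rest (y axis) by loop length class in kb (x axis), with 1 marking equal density. Right, share of level 0 domains in percent (y axis) by size class in kb (x axis), with dark bars for ends and pale bars for rest. Loops of up to 100 kb were 1.91 and 1.81 times as dense at the ends, and domains of up to 100 kb made up 24.7% and 26.2% of level 0 domains there.

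The largest level 0 domain at an end in replicate 1 was 150990001 to 152500000 on chromosome 9 (1510 kb, with 13 sub-domains and 12 loops), and in replicate 2 it was 3210001 to 5200000 on chromosome 7 (1990 kb, with 10 sub-domains and 10 loops). Neither was matched in the other replicate to within 10 kb at start and end. Identical boundaries in both replicates were found for 94 level 0 end domains, which is 10.7% of those of replicate 1 and 11.2% of those of replicate 2, where the shares over chromosomes 1 to 10 were 9.90% and 9.73%. The largest of these was 2380001 to 3090000 on chromosome 4 (710 kb), which begins where the 500-kb uncovered stretch ends. It held 6 sub-domains and 2 loops in replicate 1, and 4 sub-domains and 5 loops in replicate 2. The next was at the tip of chromosome 5, 1 to 700000 (700 kb), with 4 and 7 sub-domains, and the next 8860001 to 9500000 on the same chromosome (640 kb), with 4 and 6.

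Nesting of domains was less frequent at the ends than in the rest. In replicate 1, sub-domains were found inside 29.3% of level 0 domains at the ends (257 domains, interval 26.4 to 32.4%), against 42.6% in the rest. In replicate 2 it was 37.0% (310 domains, interval 33.8 to 40.4%) against 43.7%. The mean difference was -9.97 ± 4.71 percentage points (SD, n = 2; exact permutation test, two-sided, p = 0.5), and the ends were lower on 8 of 10 chromosomes in both replicates. In the neighbouring 10 Mb the share was 36.3% in replicate 1 and 37.4% in replicate 2, so that the mean difference to it was -3.68 percentage points, nearly all of it in replicate 1. At least 2 nested layers were found in 12.1% and 14.9% of level 0 domains at the ends, and in 19.8% and 19.9% in the rest. In the outermost Mb, by domain midpoint, 34.2% of 79 level 0 domains in replicate 1 and 51.5% of 68 in replicate 2 held sub-domains.

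The share with sub-domains differed by domain size. Sub-domains were found in 0.461% and 0.457% of level 0 end domains of up to 100 kb, and in 93.3% and 98.9% of those over 400 kb. Within a size class the ends were not lower than the rest in replicate 2. From 100 to 200 kb, the share with sub-domains was 12.7% at the ends and 14.6% in the rest in replicate 1, and 23.6% and 15.2% in replicate 2. From 200 to 400 kb it was 58.4% and 55.3%, and 70.4% and 60.4%. When the size classes of the rest were weighted as at the ends, an alternative chosen after the data were seen, the rest had 28.9% in replicate 1 and 30.5% in replicate 2, below the 29.3% and 37.0% of the ends.

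The number of sub-domains per Mb showed no stable difference, with 4.62 at the ends and 5.20 in the rest in replicate 1, and 5.82 and 5.40 in replicate 2. Sub-domains at the ends reached level 5 in replicate 1 (2 domains) and level 4 in replicate 2 (8 domains). The deepest hierarchy was found at the same place in both replicates, close to the end of chromosome 3. The level 0 domain 234420001 to 235060000 of replicate 1 (640 kb) held 10 sub-domains down to level 5 and 6 loops. Its counterpart in replicate 2, 234410001 to 235060000 (650 kb), held 9 sub-domains down to level 4 and 11 loops. Level 4 was also reached in replicate 2 by domains on chromosome 1 (2150001 to 2810000) and chromosome 2 (3730001 to 4260000 and 235920001 to 236780000), none of which had a counterpart in replicate 1.

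Loop anchors were more numerous at the ends but each held fewer loops. After overlapping anchors of a replicate were merged, there were 14.8 anchors per Mb at the ends and 9.87 in the rest in replicate 1, and 18.6 and 12.4 in replicate 2. An anchor held 1.44 loops on average at the ends and 1.57 in the rest in replicate 1, and 1.76 and 1.89 in replicate 2. Anchors with at least 3 loops made up 9.61% at the ends (interval 8.57 to 10.7%) and 14.0% in the rest in replicate 1, and 19.6% (interval 18.4 to 21.0%) and 24.1% in replicate 2. Among anchors with more than 1 loop, 57.4% at the ends and 62.3% in the rest looped to both sides in replicate 1, and 53.6% and 61.2% in replicate 2.

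Counted by loop, 74.2% of end loops shared an anchor with another loop in replicate 1 (1502 loops, interval 72.2 to 76.0%) against 79.8% in the rest. In replicate 2 it was 87.4% (2703 loops, interval 86.2 to 88.6%) against 89.3%. The mean difference was -3.74 ± 2.70 percentage points (SD, n = 2; exact permutation test, two-sided, p = 0.5). The ends were lower on 8 of 10 chromosomes in both replicates against the rest, and on 9 of 10 against the neighbouring 10 Mb, which had 79.6% and 90.9%. In this measure, unlike density, the ends thus stood apart from their neighbours as well.

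Anchor sharing rose with loop length up to 500 kb and was lower in loops over 1 Mb. It was 66.2% and 81.9% for end loops of up to 100 kb, and 91.6% and 95.9% for those of 200 to 500 kb. From 500 to 1000 kb it was 88.0% and 95.5%. Over 1 Mb it was 70% in each replicate, of 10 end loops each, and 68.3% and 72.5% in the rest. With the loop lengths of the rest weighted as at the ends, also chosen after the data were seen, the rest had 77.0% in replicate 1 and 87.7% in replicate 2, against 74.2% and 87.4% at the ends. For loops of up to 100 kb alone, the share in the rest was 71.1% in replicate 1, above the end interval of 63.4 to 68.8%, and 83.0% in replicate 2, within the end interval, whose upper bound was 83.6%.

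**Figure D5:**
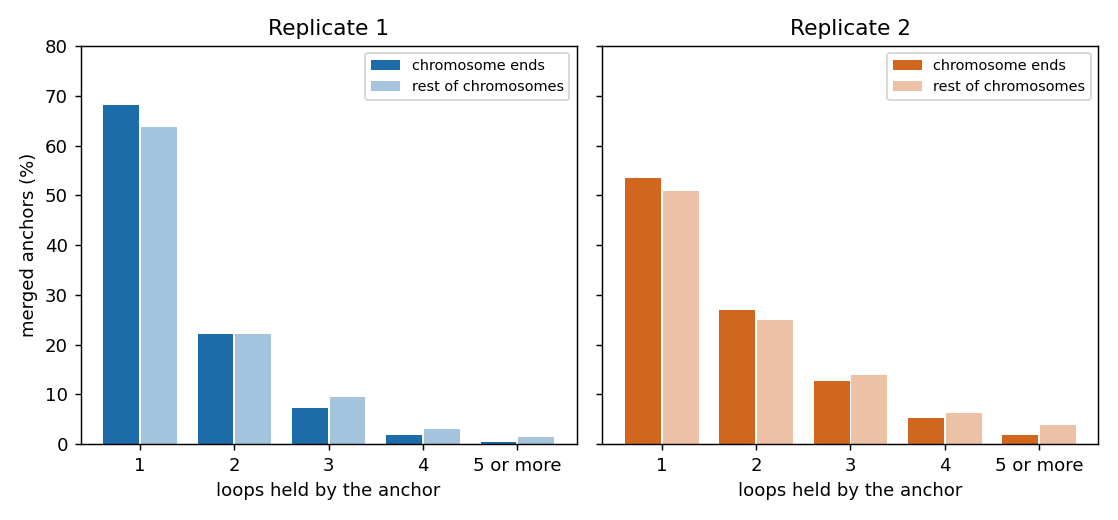
Share of merged anchors in percent (y axis) by the number of loops they held (x axis), in replicate 1 (left) and replicate 2 (right), with dark bars for chromosome ends and pale bars for the rest. Anchors with 3 or more loops made up 9.61% and 19.6% at the ends, against 14.0% and 24.1% in the rest.

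The end anchor with the most loops in replicate 1 was 7525001 to 7550000 on chromosome 7, with 6 loops of 80 to 575 kb and 11 to 31 contacts, of which 4 ran toward higher and 2 toward lower coordinates. It also held 6 loops in replicate 2. In replicate 2 the most loops were held by 304300001 to 304310000 on chromosome 1, with 8 loops of 50 to 480 kb and 14 to 44 contacts, 5 toward higher and 3 toward lower coordinates. The same anchor held 2 loops in replicate 1. In the rest of the chromosomes the highest number was 9 in each replicate.

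Nesting of loops, in contrast to that of domains, was more frequent at the ends than in the rest, but the share moved with a few very long loops. A loop was taken as nested when its whole span lay between the anchors of another loop on the chromosome. In replicate 1, 42.6% of end loops were nested (interval 40.5 to 44.8%) and 31.6% in the rest, and in replicate 2, 50.3% (interval 48.6 to 52.1%) and 46.5%. The mean difference was 7.41 ± 5.10 percentage points (SD, n = 2; exact permutation test, two-sided, p = 0.5). The ends were higher on 5 of 10 chromosomes in both replicates and lower on 1. In the neighbouring 10 Mb, 35.3% of loops were nested in replicate 1, below the ends, and 57.7% in replicate 2, above them. When only loops of up to 1 Mb were kept, an alternative chosen after the data were seen, 29.5% of end loops were nested in replicate 1 and 24.6% in the rest, and 38.0% and 36.5% in replicate 2.

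At the start of chromosome 10, 98.9% of loops were nested in replicate 1 and 79.5% in replicate 2. There a loop from 3475001 to 10400001 (starts of its anchors, 6925 kb, 13 contacts) enclosed 64 of 92 loops in replicate 1. A loop from 3480001 to 10400001 (6920 kb, 14 contacts) enclosed 100 of 146 in replicate 2. Both ran past the inner border of the window. In replicate 1 a second long loop from 220001 to 4060001 (3840 kb) enclosed 30 loops, some of them within both, from 12 contacts where 0.0115 were expected, and was not found in replicate 2. At the start of chromosome 5, 93 of 123 loops of replicate 1 lay inside the longest end loop, 2075001-2100000 to 9800001-9825000 (7725 kb, 11 contacts, 54.3 times the expected number), which was not found in replicate 2.

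Of the 10 loops over 1 Mb inside the end windows in each replicate, 3 were found in both. On chromosome 9, anchors starting at 6500001 and 9725001 were joined in replicate 1 (3225 kb, 52 contacts, 123 times the expected number) and 6520001 and 9720001 in replicate 2 (3200 kb, 24 contacts, 205 times), where it was the longest end loop. On chromosome 10, 145700001 and 148275001 were joined in replicate 1 (2575 kb, 43 contacts) and 145720001 and 148270001 in replicate 2 (2550 kb, 73 contacts). On chromosome 4, 243150001 was joined to 244500001 in replicate 1 (1350 kb, 16 contacts) and to 244510001 in replicate 2 (1360 kb, 19 contacts). Toward the end of chromosome 7, 2 loops of 1950 kb in replicate 1 and 4 loops of 1820 to 1970 kb in replicate 2 joined neighbouring places without overlapping at both anchors. Their anchors farther from the tip started at 177200001 and 177275001 in replicate 1, and from 177370001 to 177450001 in replicate 2. The arcs of chromosome 7 in the map of window loops show these sets side by side.

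Over all contact counts, end loops recurred between the replicates at about the share of all loops. Of the end loops of replicate 1, 45.3% (918 loops, interval 43.2 to 47.5%) had a loop in replicate 2 that overlapped both anchors, against 46.1% of all loops on chromosomes 1 to 10. Of the end loops of replicate 2, 29.7% (918 loops, interval 28.1 to 31.3%) had one in replicate 1, against 30.3% of all. In replicate 2 the share rose with contacts, from 5.88% of end loops with fewer than 20 contacts to 50.1% of those with 50 or more. In the rest it rose from 10.1% to 57.0%, and in each of the 4 contact classes of replicate 2 the rest lay above the interval of the ends. From 20 to 29 contacts the share was 16.3% at the ends (interval 13.6 to 19.4%) and 20.3% in the rest, and from 30 to 49 contacts 26.6% (interval 23.9 to 29.4%) and 31.6%. In replicate 1, whose anchors differ in size, it lay between 43.7% and 48.2% in all contact classes. Loops of replicate 2 were matched to those of replicate 1. There, 43.4% of end loops had 5-kb anchors and 17.8% had 25-kb anchors, against 32.7% and 26.2% in the rest. Whether these sizes or loop length account for the lower shares of replicate 2 at the ends was not tested.

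Identical anchors in both replicates were found for 361 end loops, or 17.8% of the end loops in replicate 1 and 11.7% in replicate 2, against 18.7% and 12.3% of all loops on chromosomes 1 to 10. In replicate 1, only loops with 10-kb anchors could match in this way. These were 786 end loops, or 38.8% of end loops, against 41.1% in the rest, so that anchor size limits the shares of replicate 1. The 361 loops had a median length of 100 kb, and medians of 25 and 46 contacts. Of these, 270 had at least 20 contacts in each replicate. These 270 were ranked by the ratio in the replicate where it was smaller. The first joined 173050001-173060000 and 173200001-173210000 on chromosome 8 (150 kb), with 212 contacts in replicate 1 and 224 in replicate 2, 40.3 and 27.8 times the expected number. The next joined 2770001-2780000 and 3450001-3460000 on chromosome 10 (680 kb), with 20 contacts in each, 25.2 and 22.8 times the expected number. The third joined 148050001-148060000 and 148110001-148120000 on the same chromosome (60 kb), with 42 and 76 contacts, 10.7 and 13.0 times. All 3 were chosen for their large ratios, so that a place above the median of end loops follows from the rule. For end loops with 10-kb anchors, that median was 4.74 in replicate 1 and 4.34 in replicate 2. The ratios of the 680-kb loop rest on low expected contacts, 0.792 in replicate 1 and 0.877 in replicate 2.

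Domains at the ends recurred more often than those of the whole chromosomes, while against the neighbouring 10 Mb the replicates differed in direction. Of the end domains of replicate 1, 44.5% (782 domains, interval 42.2 to 46.9%) were matched in replicate 2, where a match needed a start and an end no more than 10 kb away, against 38.7% of all domains on chromosomes 1 to 10. Of those of replicate 2, 40.2% (782 domains, interval 38.1 to 42.4%) were matched in replicate 1, against 37.1%. In the neighbouring 10 Mb the shares were 43.5% and 41.2%, and the ends were higher on 4 of 10 chromosomes in both replicates and lower on 4. Against the rest, the ends were higher on 7 of 10 chromosomes in both replicates and lower on 1. For level 0 domains alone the replicates differed, with 47.4% at the ends and 40.7% in the rest in replicate 1, and 39.8% and 41.6% in replicate 2. Of 279 end domains with identical boundaries, 169 had the same level in both. Of the windows, the end of chromosome 7, among the richest in loops, had the lowest share of recurring domains, 25.8% in replicate 1 and 22.4% in replicate 2.

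Loops at the ends lay within a single level 0 domain somewhat more often than in the rest, and met domain boundaries about as often. Both anchors lay in the same level 0 domain for 66.7% of end loops in replicate 1 (interval 64.6 to 68.7%) and 67.0% in replicate 2 (interval 65.3 to 68.6%), against 63.6% and 62.9% in the rest. The ends were higher on 6 of 10 chromosomes in both replicates and lower on 1. In the neighbouring 10 Mb the share was 65.8% and 61.9%. Against it, the ends were higher on 5 of 10 chromosomes in both replicates and lower on 2. Of the anchors, 26.2% and 23.5% at the ends came within 10 kb of a level 0 boundary, against 25.6% and 24.1% in the rest. Level 0 domains were denser at the ends, with 4.62 and 4.41 per Mb against 3.25 and 3.34. The share of all positions this close to a boundary was not computed, so whether anchors favoured boundaries equally at ends and rest was not tested. Nor were these shares weighted by loop length. At least 1 loop lay inside 65.9% of level 0 domains at the ends in replicate 1 and 69.9% in replicate 2, and inside 61.5% and 68.3% in the rest. In the neighbouring 10 Mb it was 64.9% and 72.4%, so that replicate 2 was higher there than at the ends. A loop with its anchors at both boundaries of the domain was found for 13.1% and 15.2% of level 0 domains at the ends, and for 13.3% and 15.1% in the rest.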

How the data were processed

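Hi-C libraries of B73 leaf tissue were made from 2 biological replicates. Per the labels, the authors mapped reads to B73 RefGen_v4, called loops with HICCUPS of Juicer Tools 1.9.9 (replicate 1) or 1.14.08 (replicate 2), and called domains with runHiC and HiTAD at default parameters, without pooling. The deposited loop lists hold whole-number counts of contacts, not normalized, the expected contacts as a signal from local backgrounds computed by the authors, and false discovery rates (q-values, up to 0.0983 and 0.0977) computed by the authors' caller. The deposited domain lists hold start, end and level. The lists hold calls only and no total contacts, so that depth was not computed and contacts per loop are given in its place, and a stretch without a call was not shown to lack contacts.

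Python 3.11.15, numpy 2.4.6, pandas 2.3.3, scipy 1.17.1 and matplotlib 3.10.9 were used. Loop length was measured from anchor start to anchor start, and observed over expected is against the donut background. Anchors overlapping by at least 1 bp were merged. Ends and rest were compared with an exact permutation test over the replicates, and the measures were checked on simulated lists with known answers. Shares have 95% Wilson intervals. With 2 replicates, SDs describe only the spread between these libraries, which may be technical. The p-values of the permutation test reflect only whether both replicates differed in the same direction. The regions, measures and alternatives were chosen with earlier results of these data known. Regions were named by a rule: the windows with the most and fewest loops, the anchors with the most loops, the 3 identical loops of at least 20 contacts with the largest ratio, the loops nearest a tip and the longest, and the largest, deepest and largest identical level 0 domains. For the identical loops, the ratio was that of the replicate where it was smaller. Alternatives covered window width, chromosome 6, the neighbouring 10 Mb, leaving out a replicate, stricter false discovery rates, 10-kb anchors, exact anchors, placement by midpoint and domains of at least 100 kb.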

Additional observations from a re-analysis of the deposited data

Results flagged for a closer look

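Loops were also called in stretches that the comparisons do not use. The first 10 Mb of chromosome 6 held 82 loops in replicate 1 and 93 in replicate 2, or 8.2 and 9.3 per Mb, close to the 7.73 of the rest in replicate 1 and below its 11.8 in replicate 2. Of these, 91.5% and 93.5% shared an anchor with another loop, the median length was 150 and 140 kb, and 52.4% and 46.2% were found in the other replicate. The entries named Chr0 held 338 loops in replicate 1 and 289 in replicate 2, although the labels describe the lists as without it.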

How the results depend on the processing

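The 7 differences between ends and rest were recomputed under 68 combinations of result and alternative. Of these, 61 kept their direction and 7 reversed it, where direction is that of the mean over the replicates used. No test could pass the threshold in any of them. Not all of the 68 were separate checks. Leaving out a replicate gives the main difference of the other replicate again. Keeping 10-kb anchors only, or exact anchors, leaves the values of replicate 2 as they were. Loop length, level 0 domain size and the share of loops with a shared anchor kept the direction of the mean under all alternatives run. The ranges were -35 to -15 kb, -65 to -5 kb and -5.65 to -1.39 percentage points. Single replicates did not always follow. With 20-Mb windows, 89.2% of end loops shared an anchor in replicate 2, against 89.0% in the rest. The level 0 median of replicate 2 was 160 kb both at the ends and in the neighbouring 10 Mb. Against the neighbouring 10 Mb, the difference was -0.103 loops per Mb for density, -0.0569 for observed over expected contacts and -0.0305 percentage points for nested loops. The difference in observed over expected contacts was also -0.0396 with 10-kb anchors only and -0.0398 with anchor sizes weighted as at the ends, and lay between -0.0946 and 0.554 when replicate 1 or replicate 2 was left out. The share of level 0 domains with sub-domains was 3.46 percentage points higher at the ends with size classes weighted as at the ends. Leaving out replicate 1 or 2 gave 3.80 and 11.01 percentage points for nested loops, -1.83 and -5.65 for shared anchors, and -6.64 and -13.3 for sub-domains. With 5-Mb windows, nested loops differed by 0.920 percentage points in the mean, and 10-kb anchors gave 2.38. The replicates were opposed with 5-Mb windows, at 39.9% and 32.5% at ends and rest in replicate 1, and 41.8% and 47.3% in replicate 2. Why these values moved was not tested, apart from the weighting and the anchor sizes. Without the first 10 Mb of chromosome 4, all 7 kept their direction. Of the 68, 11 were chosen after the data were seen. End loops had a median of 20 contacts in replicate 1 and 38 in replicate 2, and whether contact numbers limited the calls was not tested.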
